A study of Mus musculus with 6 samples.

Results

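The 50 genes described here serve 2 linked tasks, the transcriptional response to amino acid shortage and the charging of transfer RNAs in the cytosol. They were chosen by name, as the stress transcription factor ATF4 with its regulators and targets, the enzymes that make asparagine, serine, glycine and proline, the folate enzymes that carry single carbons, the amino acid transporters of the plasma membrane and the cytosolic aminoacyl-tRNA synthetases. Of the 50, 49 were found among the 12830 genes of the deposited table, 32 under the listed symbol and 17 synthetases through their gene identifier, because the table names them by a newer symbol such as Aars1 for Aars. Cbs is not analysed here.

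RNA was sequenced from primary BMSCs of mice 8 weeks old, which are marrow cells grown in culture that can form bone. The labels give osteogenic induction as the treatment of all 6 libraries and mark them 2 day. The 3 cKO libraries come from Prx1;Rras2f/f mice and the 3 FF libraries from Rras2f/f mice, so the floxed alleles are in both groups. The Prx1 promoter is used to delete floxed genes in limb mesenchyme, and a marrow culture can hold cells in which it is not active. Whether each library had its own animal is not stated, and the p-values therefore describe the spread of these samples, which could be technical.

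When amino acids run short, uncharged transfer RNAs activate the kinase GCN2, which phosphorylates the translation factor eIF2. General translation then slows while the messenger RNA of ATF4 is translated more. ATF4 turns on genes that import amino acids, make them and load them onto transfer RNAs, so the level of its own messenger RNA is only one of the steps that set its activity. In osteoblasts ATF4 is known for its role in amino acid supply for collagen, a protein rich in glycine and proline.

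Rras2, the targeted gene, had 26.7, 29.0 and 26.8 CPM (counts relative to library size, scaled with TMM factors) in cKO libraries 1, 2 and 3, against 49.7, 50.1 and 44.7 CPM in FF libraries 1, 2 and 3. It was 1.75-fold lower in cKO (edgeR quasi-likelihood test, adjusted p = 1.08e-05). Library depth, as the sum of counts in the table, was 31934714 to 37561452. Of the markers of stroma and the osteoblast lineage, 10 of 10 were measured, and their summed level was 15918 to 18176 CPM in cKO libraries and 20804 to 21850 CPM in FF libraries. The 12 macrophage markers, all measured, summed to 25204 to 25951 CPM in cKO and 23178 to 24538 CPM in FF, so the cultures held many macrophage transcripts in both groups. The 6 measured neutrophil markers of 8 summed to 477 to 639.6 CPM in cKO and 544 to 700.5 CPM in FF, and the 5 measured endothelial markers of 6 to 36.8 to 45.1 CPM in cKO and 38.0 to 50.5 CPM in FF. The 6 measured plasma and B cell markers of 11 summed to 421 to 496 CPM in cKO and 313 to 329.6 CPM in FF, while Mzb1, Cd79a, Ms4a1 and Tnfrsf17 are among those not analysed here. Thy1 was near 0, at 1.28 CPM in cKO and 1.19 CPM in FF on average.

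Most of the genes measured had slightly lower levels in cKO, and all of those that passed the test fell. Summed over the 49, the level was 3245, 3231 and 3167 CPM in cKO, against 3538, 3646 and 3499 CPM in FF, with no overlap between groups. Of the 49 measured genes 13 fell in cKO and 0 rose (edgeR quasi-likelihood test, p adjusted by Benjamini-Hochberg over the 12830 genes, threshold 0.05). Over all genes 2.74% were called lower and 2.1% higher, or 4.84% in either direction. At an unadjusted p below 0.05 there were 30 lower and 0 higher members, where 8.81% and 8.54% of all genes were. DESeq2 and the authors' deposited table each called 15 members lower and 0 higher, against 3.85% of all genes lower and 2.76% higher in both. Their values were nearly the same, as for Aldh1l2 at a log2 fold change of -0.74925 in both, so they do not count as separate results. All 49 passed the filter on low counts. The log2 fold change was below 0 for 44 of the 49, against 49.8% of all genes, and its median was -0.15, against 0.00058 over all genes.

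Every cKO library was below every FF library for 29 of the 49 members, and every cKO library was above every FF library for 0 of them. Over all genes these shares were 11.2% and 11.3%. The median log2 level of the members relative to their FF mean was -0.15, -0.14 and -0.19 in cKO libraries 1, 2 and 3, against -0.026, 0.042 and -0.020 in FF libraries 1, 2 and 3. The libraries of each group thus lay together, but not evenly. FF replicate 2 was the highest of the 6 libraries for 33 members, and cKO replicate 3 was the lowest for 22. The count of members called lower was 4 without FF replicate 2, and 7 and 8 without FF replicates 1 and 3. It was 17, 7 and 6 without cKO replicates 1, 2 and 3. The share of all genes called lower moved as well, to 1.64%, 1.25% and 1.69% when FF replicates 1, 2 and 3 were left out in turn, and to 4.92%, 1.55% and 1.61% when cKO replicates 1, 2 and 3 were. No member was called higher in any of these fits, where 1.25%, 0.834% and 1.26% of all genes were for the FF libraries left out in turn, and 4.17%, 0.982% and 1.04% for the cKO libraries. In limma-voom 7 members fell and 0 rose, beside 2.0% and 1.38% of all genes, and in a fit blocked on replicate number 13 fell and 0 rose, beside 3.02% and 2.2%. The median log2 fold change stayed between -0.17 and -0.13 under these changes. In bulk libraries, fewer cells of a type and less RNA per cell cannot be told apart. The summed stroma markers were lower in cKO, as the members were, without overlap between groups. The summed macrophage and plasma cell markers were higher in cKO, each without overlap. Most of the macrophage sum was Lyz2, at 17036.5, 16929.8 and 17437.2 CPM in cKO, against 15562.5, 15299.2 and 16540.4 CPM in FF. Lyz2 stood at 0.12 on the log2 scale, short of the threshold in edgeR. Of the 12 macrophage markers 2 rose and 1 fell in edgeR, which were Tyrobp, Mrc1 and Cd14 at 0.26, 0.18 and -0.18. Of the 6 plasma and B cell markers 3 rose and 0 fell. The stroma sum was carried by the collagen I chains Col1a1 and Col1a2. A sum of the other 8 markers, taken after the values were seen, was 6900.0, 6876 and 6607 CPM in cKO, against 6322, 6222 and 6389 CPM in FF. Most of that second sum was Cxcl12 alone, at 4636, 4969 and 4910 CPM in cKO, against 3425, 3427 and 3597 CPM in FF. Of the 10 stroma markers 4 fell and 1 rose in edgeR. Those that fell were Col1a1, Col1a2, Postn and Runx2, with log2 fold changes of -0.59, -0.44, -0.50 and -0.25, and the one that rose was the chemokine gene Cxcl12, at 0.47. The call of Runx2 ended without cKO replicate 2, cKO replicate 3 or FF replicate 3. Alpl and Sp7, genes of the osteoblast lineage, stood at -0.66 and -0.70, short of the threshold in edgeR but without overlap between groups. Alpl passed in DESeq2 (adjusted p = 0.00217) and in limma-voom (adjusted p = 0.0173). Pdgfra, Pdgfrb and Thy1 stood at -0.037, -0.047 and 0.11 with overlap. The part of these markers in the result was not tested.

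**Figure D1:**
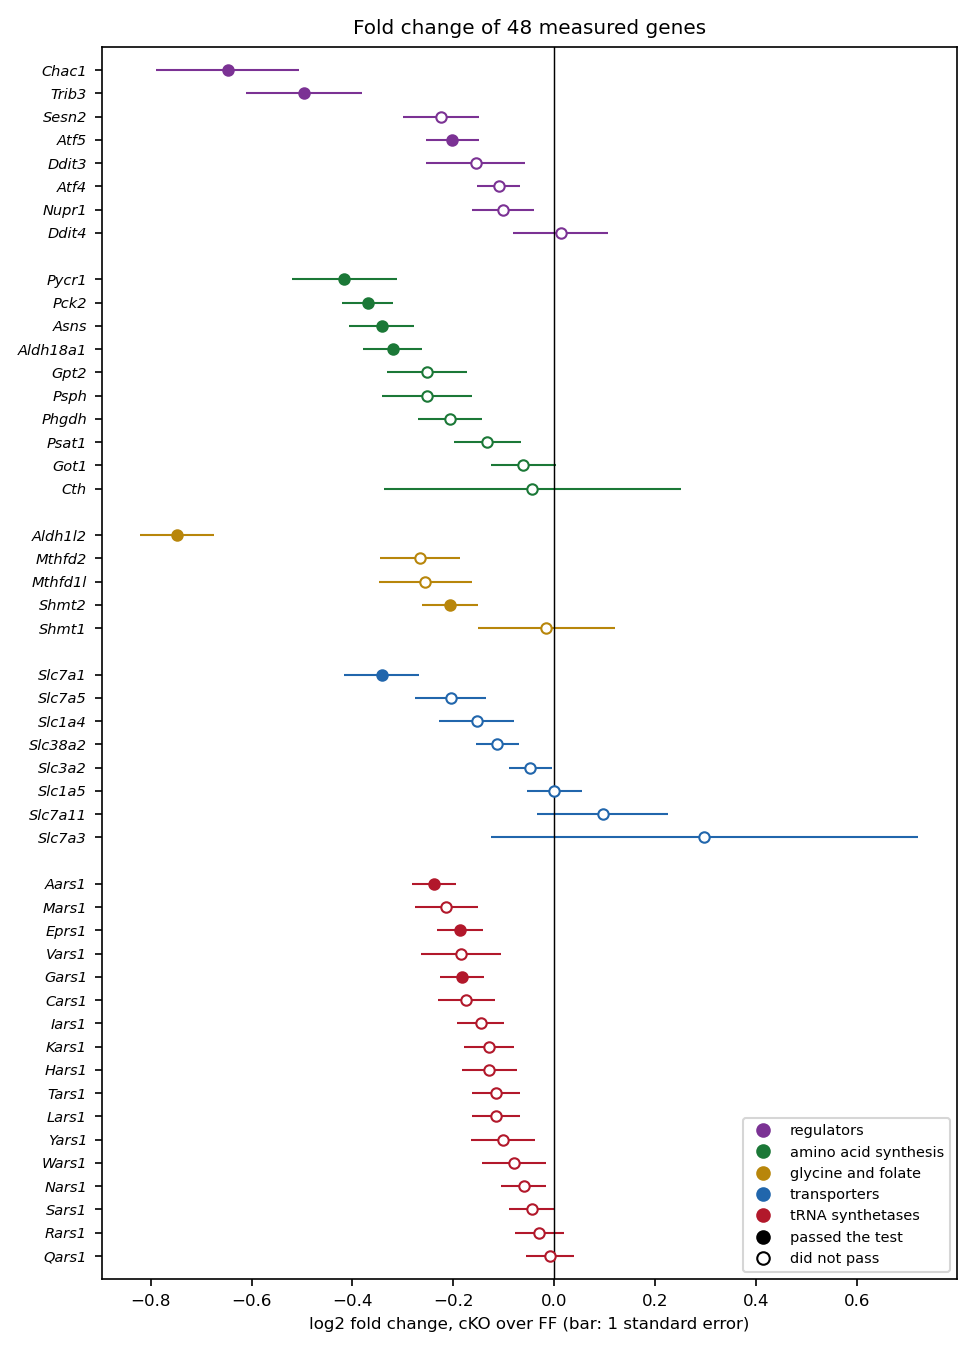
Log2 fold change of 48 of the 49 measured genes (x axis, cKO over FF), grouped by role down the page, with bars of 1 standard error and filled points for the 13 genes that passed the test. The points lie left of 0 for 44 genes, and the filled points range from -0.75 for Aldh1l2 to -0.18 for Gars1.

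**Figure D2:**
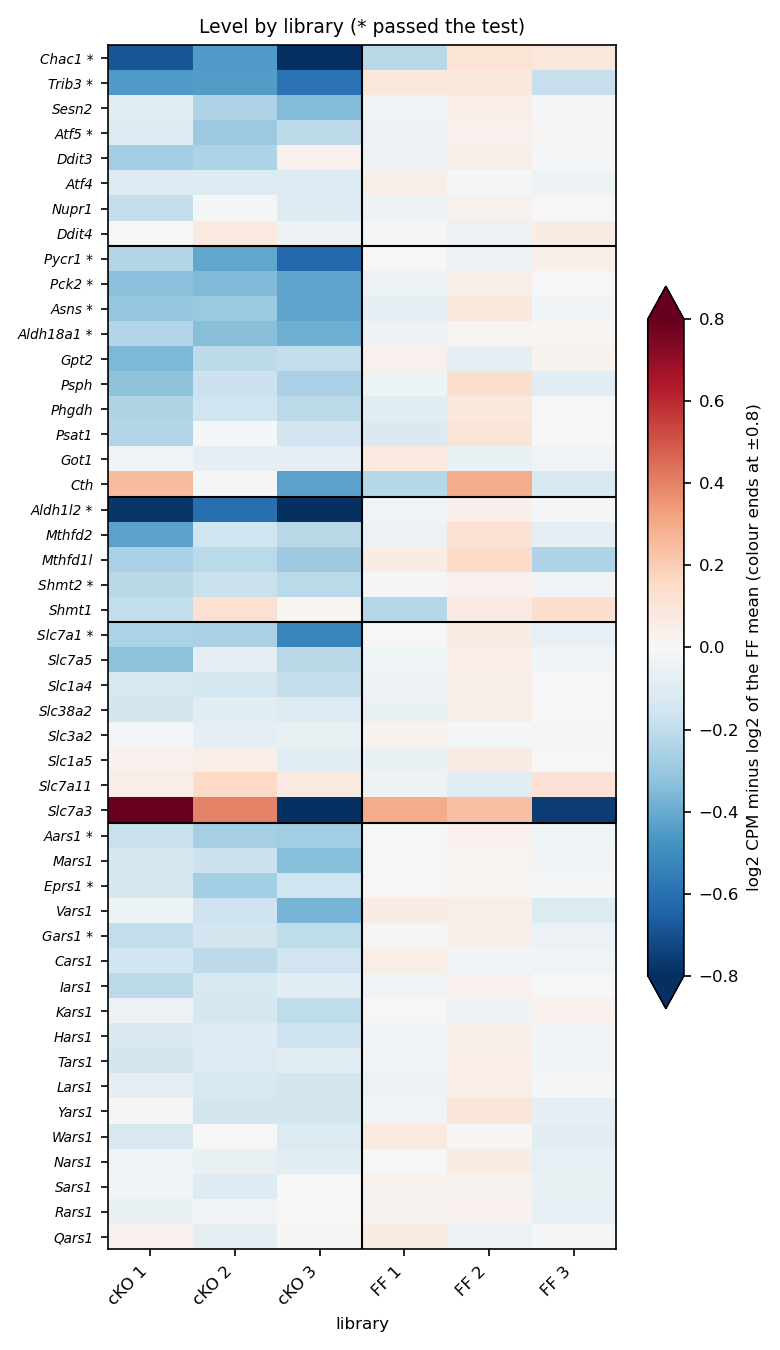
Level of 48 of the 49 measured genes in each library, as log2 CPM minus log2 of the gene's FF mean (colour, blue lower and red higher), with cKO libraries on the left and FF libraries on the right. The cKO columns are mostly blue, with medians over all 49 of -0.15, -0.14 and -0.19, and FF replicate 2, with a median of 0.042, is the reddest of the FF columns.

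ATF4 binds DNA with C/EBP partners at a composite element whose core was searched here as TGATGNAA on both strands. The search covered the RefSeq promoter windows of GRCm38.p6, which run from 250 bases before a transcription start to the 50 bases from it on. A window was found for 37 of the 49 members, and 14 of the 37, or 37.8%, held the core. Of all 27025 genes with a window 4.51% held it, and of the 9994 genes of the deposited table with a window 2.8% did. Among the members that fell, 7 of the 12 with a window held the core, and among those that did not pass the test 7 of 25 did. These counts are small, and whether they differ was not tested. The list was drawn up from known ATF4 targets, some of which were established through this element, so these shares are a description of the list. A match shows letters in a window, not binding. A site of each of these 7 members that fell is given so that their letters can be compared. Each is 30 bases long and written 5′ to 3′ on the strand on which the core, in capitals, reads forward.
Chac1: cctggcaggagTGATGCAAcggcagggaag
Trib3: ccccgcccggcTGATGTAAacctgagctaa
Asns: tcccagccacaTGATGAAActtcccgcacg
Pck2: ctgtaagatacTGATGTAActttgaaggct
Pycr1: tgccctgtgtaTGATGCAAtgcacaaggct
Aars1: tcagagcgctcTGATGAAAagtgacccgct
Gars1: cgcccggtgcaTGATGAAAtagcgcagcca

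These sites lie at chr2:119351038-119351067 on the minus strand for Chac1, chr2:152344028-152344057 on the plus strand for Trib3, chr6:7693214-7693243 on the minus strand for Asns and chr14:55540152-55540181 on the minus strand for Pck2. They lie at chr11:120643833-120643862 on the minus strand for Pycr1, chr8:111033840-111033869 on the minus strand for Aars1, and chr6:55037960-55037989 on the minus strand for Gars1. Counted from the transcription start, the cores of Chac1, Pycr1 and Asns began at -193, -103 and -23, and those of Trib3 and the Aars1 site shown at 15 and 10, inside the transcript. The 16 sites of the 14 members used 3 forms of the core, with C at the open position in 11 sites, A in 3 and T in 2. Another core of Aars1, TGATGCAA, lay before the start, from -112 to -105. The other members with a core were Nupr1, Got1, Slc7a11 with 2 sites, Slc1a4, Iars1, Tars1 and Yars1. The core was in 0 of 14 mitochondrial synthetase genes with a window, and in 0 of the 4 glycine and folate genes with a window. Among the related lists described below, it was in 3 of 10 further ATF4 targets or partners with a window. It was also in 1 of 10 genes of the unfolded protein response and 1 of 12 further transporters. The remaining related lists held no core. The 250 bases before the start of Pck2, at chr14:55540016-55540265 on the plus strand, are given as the example with the smallest adjusted p among the genes with a core. Capitals mark the core, which here reads forward on the other strand.
Pck2: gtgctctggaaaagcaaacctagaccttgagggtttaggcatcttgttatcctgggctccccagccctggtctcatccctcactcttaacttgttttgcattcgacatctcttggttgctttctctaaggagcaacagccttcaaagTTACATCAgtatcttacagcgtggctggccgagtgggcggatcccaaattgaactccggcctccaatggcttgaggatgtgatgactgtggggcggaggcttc

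Among the regulators, 3 of 8 fell and 0 rose, beside 2.74% and 2.1% of all genes. Their log2 fold change was below 0 for 7 of 8, against 49.8% of all genes, with a median of -0.18. Atf4 itself had 144, 145 and 144 CPM in cKO, against 161, 155 and 151 CPM in FF. Each cKO library was below each FF library, by a small margin, with a log2 fold change of -0.11 and a standard error of 0.0422, short of the threshold (edgeR adjusted p = 0.178). Per length, Atf4 was among the members with the highest levels, at 76.0 ± 0.635 FPKM in cKO and 82.7 ± 1.53 FPKM in FF, beside Nars1, which charges transfer RNA with asparagine, at 80.8 ± 9.79 FPKM in cKO and 82.2 ± 5.94 FPKM in FF (SD, n = 3 each). Atf5, a related factor translated under the same control, had 109, 96.0 and 101 CPM in cKO, against 114, 121 and 118 CPM in FF. It was 1.15-fold lower (log2 fold change -0.20, standard error 0.0523, edgeR adjusted p = 0.0394). The Atf5 gene overlaps Nup62, on the opposite strand, by 571 bases, and Nup62 itself stood at -0.023 on the log2 scale (edgeR adjusted p = 0.899).

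The target genes Chac1 and Trib3 had larger differences at low levels. Chac1, an enzyme that degrades glutathione and is a sensitive readout of ATF4, had 5.67, 6.65 and 5.12 CPM in cKO, against 7.81, 9.82 and 9.69 CPM in FF. The groups did not overlap, and Chac1 was 1.57-fold lower (log2 fold change -0.65, standard error 0.142, edgeR adjusted p = 0.0163). Trib3, a pseudokinase that restrains ATF4 in a feedback loop, had 8.27, 8.30 and 7.52 CPM in cKO, against 12.01, 11.99 and 9.94 CPM in FF. It was 1.41-fold lower (log2 fold change -0.50, standard error 0.115, edgeR adjusted p = 0.0232), and FF replicate 3 lay closest to the cKO libraries.

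The other regulators did not pass the test. Ddit3, which encodes the pro-apoptotic factor CHOP and overlaps Mars1 on the opposite strand by 68 bases, had 13.4, 13.6 and 16.5 CPM in cKO, against 15.7, 16.7 and 16.1 CPM in FF. The groups overlapped through cKO replicate 3 (log2 fold change -0.16, edgeR adjusted p = 0.463). Sesn2, a leucine sensor that restrains mTORC1, stood at -0.22 on the log2 scale (edgeR adjusted p = 0.122), and passed without cKO replicate 1 (edgeR adjusted p = 0.0198). Nupr1, a stress-induced chromatin protein, stood at -0.10 and Ddit4, an inhibitor of mTORC1, at 0.012 on the same scale. Ddit4 had 12.1, 12.8 and 11.8 CPM in cKO, against 11.98, 11.7 and 12.6 CPM in FF.

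Of the 10 measured enzymes of amino acid synthesis and transamination 4 fell and 0 rose, beside 2.74% and 2.1% of all genes. All 10 had log2 fold changes below 0, with a median of -0.25, although the sign for Cth changed when single libraries were left out. Asns, the asparagine synthetase and a classic target of ATF4, had 41.6, 42.1 and 38.5 CPM in cKO, against 49.3, 54.8 and 50.9 CPM in FF. The groups did not overlap, and Asns was 1.27-fold lower (log2 fold change -0.34, standard error 0.0642, edgeR adjusted p = 0.00631). Pck2, the mitochondrial enzyme that makes phosphoenolpyruvate, had 73.2, 72.0 and 68.8 CPM in cKO, against 89.2, 94.9 and 92.4 CPM in FF. This was 1.29-fold lower with little spread within the groups (log2 fold change -0.37, standard error 0.0497, edgeR adjusted p = 0.000598). In FPKM the relative difference was smaller, at 18.5 ± 0.842 in cKO and 21.8 ± 1.13 in FF (SD, n = 3 each). Why the measures differ for Pck2 was not tested.

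Both measured enzymes of the path from glutamate to proline fell. Aldh18a1, which starts that path, had 56.5, 52.4 and 50.5 CPM in cKO, against 64.5, 67.3 and 67.2 CPM in FF, and was 1.25-fold lower (log2 fold change -0.32, standard error 0.0582, edgeR adjusted p = 0.00496). Pycr1, which finishes it in mitochondria, had 14.2, 12.5 and 10.8 CPM in cKO, against 16.7, 16.1 and 17.2 CPM in FF, and was 1.33-fold lower (log2 fold change -0.42, standard error 0.104, edgeR adjusted p = 0.0334). The cKO libraries were the more spread of the groups for both genes.

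The 3 enzymes of serine synthesis from a glycolytic intermediate did not pass the test. Phgdh, the first, had 40.8, 43.2 and 41.5 CPM in cKO, against 45.3, 51.0 and 48.4 CPM in FF, with no overlap between groups (log2 fold change -0.21, edgeR adjusted p = 0.0859). Psat1, the second, had 68.2, 79.5 and 72.4 CPM in cKO, against 74.3, 86.2 and 80.8 CPM in FF, and here the groups overlapped (log2 fold change -0.13, edgeR adjusted p = 0.334). Psph, the last step, stood at -0.25 on the log2 scale (edgeR adjusted p = 0.14), and its gene overlaps Cct6a on the opposite strand by 452 bases. Of the transaminases, Gpt2 stood at -0.25 on the log2 scale (edgeR adjusted p = 0.0943) and Got1 at -0.062. Cth, the cystathionine lyase of cysteine synthesis, was near 1 CPM in both groups, at 1.19 ± 0.273 CPM in cKO and 1.22 ± 0.247 CPM in FF (SD, n = 3 each).

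**Figure D3:**
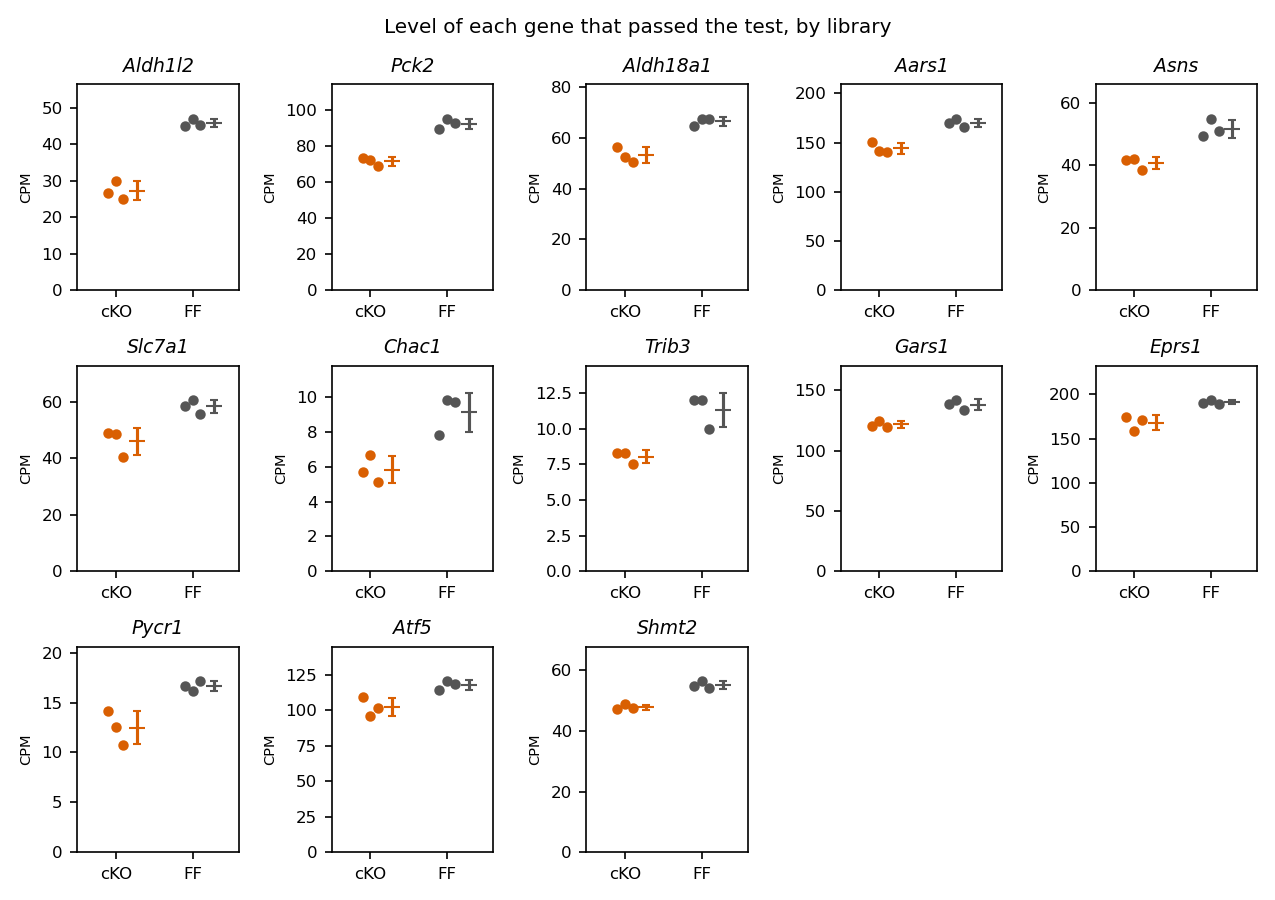
Level in CPM (y axis, from 0) of each of the 13 genes that passed the test, in order of adjusted p, with a point for each cKO library on the left and each FF library on the right and the mean ± SD beside them. Every cKO point lies below every FF point, and the ratio between the groups is largest for Aldh1l2, at 27.3 ± 2.59 CPM in cKO and 45.8 ± 1.07 CPM in FF.

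Of the 5 glycine and folate enzymes 2 fell and 0 rose, beside 2.74% and 2.1% of all genes. Aldh1l2, the mitochondrial enzyme that oxidises formyl-tetrahydrofolate and makes NADPH, had the largest fall among the members. It had 26.7, 30.1 and 24.98 CPM in cKO, against 44.9, 47.0 and 45.3 CPM in FF. That is 1.68-fold lower, far beyond the spread within either group (log2 fold change -0.75, standard error 0.0728, edgeR adjusted p = 4.56e-05). Aldh1l2 overlaps D10Wsu102e on the opposite strand by 1056 bases, and that gene stood at 0.0086 on the log2 scale (edgeR adjusted p = 0.966). Shmt2, the mitochondrial enzyme that splits serine into glycine and a single carbon, had 47.1, 48.7 and 47.3 CPM in cKO, against 54.6, 56.4 and 54.2 CPM in FF. It was 1.15-fold lower (log2 fold change -0.21, standard error 0.0552, edgeR adjusted p = 0.0464), a call near the threshold.

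Mthfd2 and Mthfd1l, the next mitochondrial enzymes of this path, stood at -0.27 and -0.26 on the log2 scale, short of the threshold (edgeR adjusted p = 0.0755 and 0.153). Mthfd2 passed in DESeq2 (adjusted p = 0.0358) and with the replicate block. Mthfd1l had 25.1, 25.8 and 24.6 CPM in cKO, against 31.3, 33.4 and 25.3 CPM in FF, and passed in edgeR without FF replicate 3 (adjusted p = 0.0270), the one FF library among the cKO values. The cytosolic Shmt1 had 6.84, 8.53 and 7.93 CPM in cKO, against 6.71, 8.21 and 8.63 CPM in FF, with overlapping groups (log2 fold change -0.016, edgeR adjusted p = 0.971). In a list of 11 further measured folate genes, of the cytosol and of mitochondria, 0 passed the edgeR test, 0 had an unadjusted p below 0.05 and the median log2 fold change was -0.032.

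Among the 8 transporters 1 fell and 0 rose, beside 2.74% and 2.1% of all genes. Slc7a1, the main carrier of arginine and lysine, had 48.997, 48.7 and 40.5 CPM in cKO, against 58.6, 60.7 and 55.9 CPM in FF. It was 1.27-fold lower (log2 fold change -0.34, standard error 0.0738, edgeR adjusted p = 0.0152), and cKO replicate 3 was the lowest library. Slc7a5, the leucine carrier LAT1, had 33.9, 40.4 and 36.5 CPM in cKO, against 41.6, 44.2 and 42.0 CPM in FF. The groups did not overlap, and the difference missed the threshold (log2 fold change -0.21, edgeR adjusted p = 0.135).

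The other transporters did not pass the test either. Slc3a2, the chain that brings LAT1 and the cystine carrier to the membrane, had 145, 138 and 140.4 CPM in cKO, against 149, 144 and 145 CPM in FF, with overlapping groups. The glutamine carrier Slc38a2 and the serine and alanine carrier Slc1a4 stood at -0.11 and -0.15 on the log2 scale, each without overlap between groups but short of the threshold (edgeR adjusted p = 0.18 and 0.309). Slc1a5, another glutamine carrier, had 84.5, 85.5 and 77.3 CPM in cKO, against 79.4, 85.7 and 82.2 CPM in FF, a difference below the spread in either group. Slc7a11, the cystine carrier, had a log2 fold change of 0.096, with 6.61 ± 0.268 CPM in cKO and 6.18 ± 0.456 CPM in FF (SD, n = 3 each), and Slc7a3 was at about 1 CPM in both groups. In a list of 15 further measured amino acid transporters 2 fell and 0 rose, beside 2.74% and 2.1% of all genes. At an unadjusted p below 0.05 in edgeR, 5 of the 15 were lower and 2 higher, beside 8.81% and 8.54% of all genes. The 2 that fell were Slc7a8, a carrier of neutral amino acids, and Slc7a6, a carrier of basic and neutral ones. Slc7a8 had 84.5, 78.3 and 78.2 CPM in cKO, against 101, 95.1 and 89.3 CPM in FF (log2 fold change -0.24, standard error 0.0557, edgeR adjusted p = 0.0214). Slc7a6 had 37.1, 37.7 and 38.9 CPM in cKO, against 42.1, 47.2 and 45.4 CPM in FF (log2 fold change -0.24, standard error 0.0638, edgeR adjusted p = 0.0411). The groups did not overlap for either gene. Both calls ended in limma-voom and without any 1 of 4 libraries, which were FF replicates 1 and 2 and cKO replicates 2 and 3 for Slc7a8, and FF replicates 2 and 3 and cKO replicates 2 and 3 for Slc7a6.

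The cytosolic aminoacyl-tRNA synthetases, each of which loads an amino acid onto its transfer RNA, showed small differences, nearly all on one side of 0. Of the 18 members 17 had a log2 fold change below 0, the lowest was -0.24 and the median -0.12. Each cKO library was below each FF library for 10 of the 18, beside 11.2% of all genes. Of the 18, 3 fell and 0 rose, beside 2.74% and 2.1% of all genes. Aars1, for alanine, had 150.3, 142 and 140.2 CPM in cKO, against 169, 174 and 166 CPM in FF, and was 1.18-fold lower (log2 fold change -0.24, standard error 0.0442, edgeR adjusted p = 0.00574). Its gene overlaps Exosc6 on the same strand by 1326 bases, and Exosc6 is not among the genes measured. Gars1, for glycine, had 121, 125 and 119.8 CPM in cKO, against 139, 142 and 134 CPM in FF, and was 1.13-fold lower (log2 fold change -0.18, standard error 0.0442, edgeR adjusted p = 0.0285). Eprs1, which loads both glutamate and proline, had 174, 158 and 172 CPM in cKO, against 191, 194 and 189 CPM in FF, and was 1.14-fold lower (log2 fold change -0.19, standard error 0.0459, edgeR adjusted p = 0.0297). The groups did not overlap for any of the 3.

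Of the other synthetases, Mars1 for methionine, Vars1 for valine, Cars1 for cysteine and Iars1 for isoleucine stood at -0.21, -0.18, -0.17 and -0.15 on the log2 scale, all short of the threshold (edgeR adjusted p = 0.0695, 0.259, 0.11 and 0.106). Mars1 passed in DESeq2 (adjusted p = 0.0384) and, with Vars1 and Kars1, in edgeR without cKO replicate 1 (adjusted p = 0.0199 for Mars1, 0.0354 for Vars1 and 0.0238 for Kars1). Kars1, Hars1, Tars1, Lars1 and Yars1 lay between -0.13 and -0.10. Wars1, Nars1, Sars1, Rars1 and Qars1 lay between -0.080 and -0.0081. Qars1, for glutamine, had 115, 107 and 112 CPM in cKO, against 116, 109 and 111 CPM in FF, and the groups overlapped. A split by protein complex was chosen after the values were seen. The median was -0.12 both for the 8 members of the multi-synthetase complex and for the 10 synthetases outside it.

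In the related gene lists the median log2 fold change lay closer to 0, and whether they differ from the members was not tested. The 17 listed mitochondrial synthetases, which are those with genes of their own, had 0 calls. Of their log2 fold changes 10 were below 0 and 7 above, with a median of -0.017. The groups overlapped for all 17. In edgeR 0 of the 17 had an unadjusted p below 0.05. The 5 genes of the phenylalanyl synthetase and the synthetase scaffold had 0 calls in edgeR, 0 at an unadjusted p below 0.05 and a median of 0.012. The 12 genes of the unfolded protein response of the endoplasmic reticulum, a stress pathway that also feeds ATF4 through the kinase PERK, had 0 calls, 0 at an unadjusted p below 0.05 and a median of -0.0055. The 13 eIF2 kinases, eIF2B subunits and related regulators had 0 calls in edgeR, 2 lower at an unadjusted p below 0.05 and a median of -0.023. Of all genes 8.81% were lower at that p. Eif2ak4, the gene of GCN2, named after its values were seen, had 27.1, 26.7 and 28.9 CPM in cKO, against 26.0, 28.9 and 29.0 CPM in FF. Eif2ak2, an interferon-induced kinase gene named likewise, had 63.9, 56.6 and 76.4 CPM in cKO, against 148, 84.4 and 66.3 CPM in FF, where replicate 1 stood apart.

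Further genes known as ATF4 targets or partners had no common direction. Of 11 measured, 1 fell and 0 rose, with 5 log2 fold changes below 0 and 6 above and a median of 0.0084. At an unadjusted p below 0.05 in edgeR, 2 of the 11 were lower and 0 higher, beside 8.81% and 8.54% of all genes. The one that fell was Vldlr, the VLDL receptor, which had 27.6, 22.9 and 20.0 CPM in cKO, against 50.6, 45.5 and 44.8 CPM in FF. It was 2.00-fold lower (log2 fold change -0.999, standard error 0.110, edgeR adjusted p = 0.000917). The 9 further glutamate and proline enzymes measured had 0 calls in edgeR, 1 higher at an unadjusted p below 0.05 and a median of -0.027. Of all genes 8.54% were higher at that p. Over the 8 lists together 3 of 93 genes fell and 0 rose, beside 2.74% and 2.1% of all genes.

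**Figure D4:**
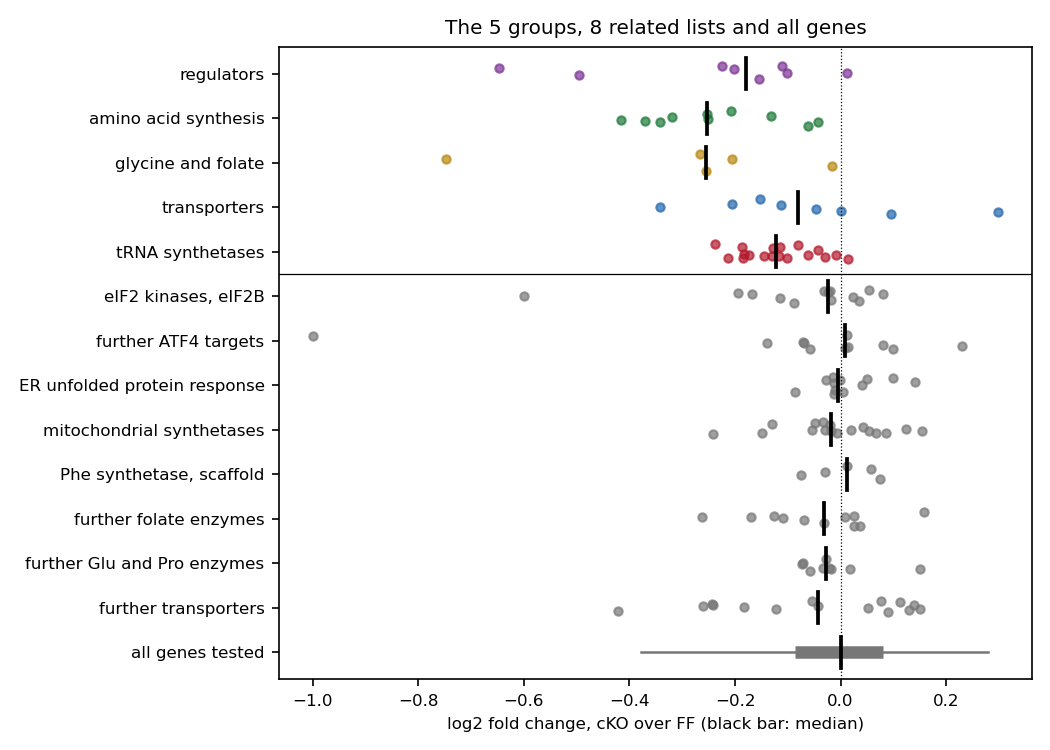
Log2 fold change of each gene (x axis, cKO over FF) for the 5 role groups, above the line, and for 8 related lists, with a black bar at each median. The bottom row gives all 12830 genes tested, with a thick bar from the lower to the upper quartile and a thin line from the 5th to the 95th percentile. The medians of the role groups lie between -0.26 and -0.080, and those of the related lists between -0.044 and 0.012.

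Of the 13 calls, those of Aldh1l2, Pck2, Aldh18a1 and Asns held under each of 8 other settings and without any 1 library. Aars1 and Slc7a1 lost theirs without FF replicate 2 alone (edgeR adjusted p = 0.0596 and 0.0961). The call of Chac1 ended without FF replicate 2, FF replicate 3 or cKO replicate 3 (edgeR adjusted p = 0.105, 0.0765 and 0.0699), and that of Trib3 without FF replicate 1, FF replicate 2, cKO replicate 2 or cKO replicate 3 (edgeR adjusted p = 0.0902, 0.129, 0.0666 and 0.0862). Atf5, Eprs1, Gars1, Pycr1 and Shmt2 kept theirs without cKO replicate 1 and lost it without any other single library. In those fits their edgeR adjusted p lay between 0.0509 and 0.21. These 5 genes and Trib3 also lost the call in limma-voom, and Shmt2 lost it with library totals alone and with the replicate block.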

How the data were processed

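The deposited table holds gene counts for each of the 6 libraries, not normalized by the authors, per the file headers. Per the file headers it also holds FPKM values, which the authors scaled by length and depth, and the authors' log2 fold change with its p-value. The submitters' processing notes name the build mm10. Libraries were made with a stranded kit, per the labels. Sources used here do not give the aligner, the counting tool, its strand setting or the test behind the deposited p-values, so reads of overlapping genes may be split between them. The lowest mean count of any gene in the table was 22.3 per library.

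All 12830 genes were tested on counts with edgeR 4.0.16 in R 4.3.3 (TMM scaling, filterByExpr, which removed 0 genes, and the robust quasi-likelihood test with no covariate). A gene was called at a Benjamini-Hochberg adjusted p under 0.05. The standard error is the log2 fold change divided by the square root of F. Gene models came from GENCODE M21. Alternatives were DESeq2 1.42.0, voom in limma 3.58.1, other scaling and filters, a replicate block and each library left out. The fit was tested on simulated data. Members, lists and tests were chosen with earlier results of these data known. The naming rule took the called members with Atf4, Ddit3, Phgdh, Psat1 and Slc7a5, and the called genes of each related list. The library values of other genes are given for genes chosen after their values were seen. No pair of libraries in a group agreed within sampling noise. A few items, among them 1 member's own values, are not reported here. FPKM served only to compare levels between genes and, for Pck2, between groups.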

Additional observations from a re-analysis of the deposited data

How the results depend on the processing

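No member was called higher in cKO under any alternative tried, and the median log2 fold change of the 49 members was negative under each. Members called lower numbered 12 to 15 with other scaling, other filters, DESeq2 and the replicate block, and 7 in limma-voom. Leaving out 1 library gave 4 to 17 members called lower and 268 to 1166 genes called in all, with fewer samples in each fit. With the replicate number as a block, 13 members and 669 genes were called. Deviations of same-numbered libraries correlated at -0.036, 0.091 and -0.099 for numbers 1, 2 and 3. Those of differently numbered libraries ran from -0.19 to 0.21. With 3 libraries in a group, these values cannot settle whether same-numbered libraries were paired. Over the 32 members matched by exact symbol, a choice added after seeing the data, the median was -0.21. Slc1a5 turned to a log2 fold change of -0.00123 with RLE scaling, -0.000704 with a mean of at least 5 CPM, -0.00144 in DESeq2, -0.000515 with the replicate block and -0.00196 in limma-voom. With 1 library left out, log2 fold changes near 0 took both signs. They ran from -0.21 to 0.14 for Cth, from -0.023 to 0.044 for Ddit4, from -0.031 to 0.022 for Qars1, from -0.12 to 0.068 for Shmt1, from -0.029 to 0.044 for Slc1a5 and from -0.11 to 0.65 for Slc7a3. Outside the members they ran from -0.070 to 0.0099 for Eif2ak4, from -0.13 to 0.0081 for Pdgfrb and from -0.16 to 0.43 for Thy1. The cause of these changes was not tested. Counts near 1 CPM, as for Slc7a3, Cth and Thy1, limit the precision of those genes.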
